A study of Mus musculus with 10 samples.

Results

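Proteasome genes were taken from RNA-seq of mouse platelets as every gene symbol made of Psm, one letter from a to g and a number, which gave 56 of the 53819 symbols counted. Of these, 49 encode subunits, activators, an inhibitor or assembly chaperones of the proteasome. The other 7 share only the name pattern and are 5 pseudogenes, Psmc3ip, a meiotic recombination gene, and Psme3ip1, which encodes a protein that binds an activator. Platelets came from P7 mice, taken to mean postnatal day 7, or from adults, 5 libraries per age (P7 letters A, B, C, E, I; adult letters A, B, C, G, H). Neither strain, sex nor any genotype or treatment is given in the sources used here. Each library came from polyA RNA amplified from a small input. It is not stated which libraries come from separate animals, so the p-values rest on the spread of these libraries, which may be technical.

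The proteasome degrades proteins tagged with ubiquitin. Its core is a barrel of alpha rings, which gate entry, around beta rings, which hold the cutting sites. A regulatory particle caps the barrel: a base with a ring of ATPases unfolds the substrate, and a lid removes its ubiquitin. In many immune cells, and under interferon, inducible subunits replace the standard catalytic ones, which makes the immunoproteasome, a source of peptides for MHC class I. Platelets have no nucleus but carry messenger RNA from megakaryocytes and hold active proteasomes, and proteasome inhibitors lower platelet counts in patients.

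Total counts were 19431863 to 25029931 in P7 libraries and 19541997 to 23291269 in adult libraries, and 49 to 51 of the proteasome symbols had at least 1 count in each library of either age. Levels are given as CPM, counts scaled to a common library total. Platelet markers were abundant at both ages, with Pf4 at 11701 ± 2004 CPM in P7 platelets and 11284 ± 1337 CPM in adult platelets (SD, n = 5 per age), and of 5 such markers Itga2b and Gp9 were higher and Ppbp lower at P7. CPM values were scaled by TMM, a correction for differences in RNA composition. Fold changes are P7 over adult from the quasi-likelihood test of edgeR across 8198 genes, SE refers to the log2 scale, and a gene was called at a Benjamini-Hochberg adjusted p under 0.05. In bulk RNA of this kind, fewer cells that express a gene and less of its RNA per cell cannot be told apart.

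Of the 56 symbols, 46 had enough counts to be tested, of which 11 were higher and 3 lower at P7. The share called higher was 23.9%, against 13.8% of all genes tested, and the share called lower was 6.52%, against 13.9%. The median log2 fold change was 0.32 over the tested proteasome genes and 0.05 over all genes tested. The 11 genes that rose were Psmb10, Psmf1, Psmb6, Psmc5, Psmd8, Psme1, Psmb5, Psmd4, Psme2, Psmd13 and Psma7. The 3 that fell were Psmg2, Psmd11 and Psma2. The change was at least 2-fold for 4 of the 14, namely Psmb10, Psmf1 and Psmb6 among the higher genes and Psmg2 among the lower. Among members with a mean of at least 20 CPM, 6 of 12 were higher (50%) and 3 of 12 lower (25%), against 17.6% higher and 24.7% lower of the 2025 genes at that level. Of the other 34 tested symbols 5 were called (14.7%), against 22.9% of the 6173 genes under that level. Summed over all 56 symbols, the level was 847 to 983 CPM in P7 platelets and 745 to 852 CPM in adult platelets, and these ranges overlapped slightly.

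**Figure D1:**
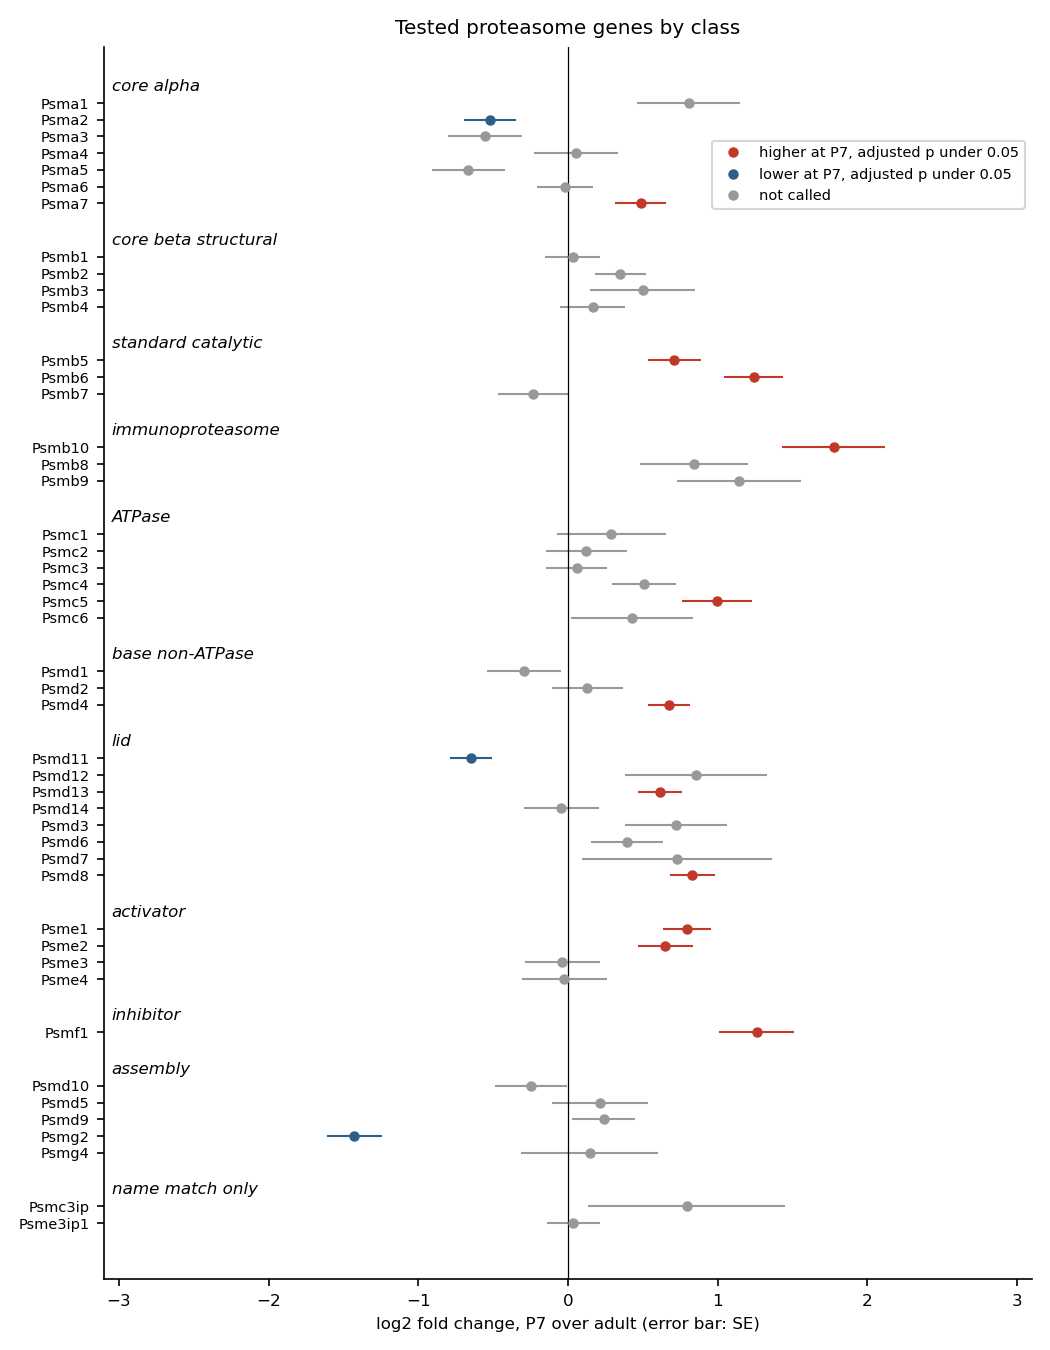
Log2 fold change, P7 over adult, of the 46 tested proteasome genes (points, with SE as error bars), grouped by their place in the complex, from the core at the top to assembly chaperones and name matches at the bottom. Red points are the 11 genes called higher at P7, blue points the 3 called lower, and grey points the 32 not called.

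Promoters of 5 members are printed here, since the family has known upstream regulators: the factor encoded by Nfe2l1 drives proteasome subunit genes through antioxidant response elements, and interferon acts on inducible subunits through its own elements. RefSeq start sites on GRCm38.p6 gave promoter sequence for 43 of the 56 symbols. Psmb5 and Psmb6, both higher at P7, hold a core antioxidant response element, Psmd4, also higher, a core interferon-stimulated response element on the opposite strand, and Psmb8, an inducible subunit gene, a gamma-activated site. Psmd11, the lower gene of highest level, holds none of the 3. Each sequence is the 250 bases before the start, read 5′ to 3′ on the strand of the gene, with the matched letters in capitals. No 2 matches overlapped in them. The matches begin 47 bases before the start in Psmb5, 9 in Psmb6, 97 in Psmb8 and 80 in Psmd4.

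Psmb5 (chr14:54617996-54618245, minus strand): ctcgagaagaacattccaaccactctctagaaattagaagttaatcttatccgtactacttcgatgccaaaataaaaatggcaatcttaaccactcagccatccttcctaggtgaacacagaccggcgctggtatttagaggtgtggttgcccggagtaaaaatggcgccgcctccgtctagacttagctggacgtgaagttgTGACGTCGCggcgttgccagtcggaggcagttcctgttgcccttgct

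Psmb6 (chr11:70525107-70525356, plus strand): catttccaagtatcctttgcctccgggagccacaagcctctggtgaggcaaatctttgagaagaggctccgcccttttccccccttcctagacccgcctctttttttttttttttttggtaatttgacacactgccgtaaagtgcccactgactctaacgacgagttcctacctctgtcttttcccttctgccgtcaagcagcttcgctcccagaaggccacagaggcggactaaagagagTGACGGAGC

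Psmb8 (chr17:34197945-34198194, plus strand): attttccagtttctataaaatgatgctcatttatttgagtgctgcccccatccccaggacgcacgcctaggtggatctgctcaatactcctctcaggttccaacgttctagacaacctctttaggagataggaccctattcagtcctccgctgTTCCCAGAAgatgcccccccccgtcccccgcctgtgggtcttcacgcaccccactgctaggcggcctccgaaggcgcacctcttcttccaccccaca

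Psmd4 (chr3:95042615-95042864, minus strand): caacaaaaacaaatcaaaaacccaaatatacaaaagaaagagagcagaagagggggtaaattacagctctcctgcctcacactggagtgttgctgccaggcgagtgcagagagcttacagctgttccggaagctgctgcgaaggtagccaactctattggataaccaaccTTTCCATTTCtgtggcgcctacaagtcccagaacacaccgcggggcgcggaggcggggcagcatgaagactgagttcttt

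Psmd11 (chr11:80428365-80428614, plus strand): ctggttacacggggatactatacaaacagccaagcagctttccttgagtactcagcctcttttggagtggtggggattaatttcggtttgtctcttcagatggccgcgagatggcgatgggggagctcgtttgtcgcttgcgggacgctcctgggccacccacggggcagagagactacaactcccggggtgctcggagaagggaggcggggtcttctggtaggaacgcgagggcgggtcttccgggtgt

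The antioxidant response element core TGACNNNGC, searched on both strands like the others, was present in 5 of 43 proteasome promoters (11.6%) and in 11.5% of 27025 genes with a promoter. Of the 11 genes called higher, 2 held it, and of the 2 called lower with a promoter sequence none did. The other 3 holders, Psmd9, Psmd12 and Psmc6, were among the 26 members not called that have a promoter sequence (11.5%). GAAA repeated after any pair of bases, the core of the interferon-stimulated response element, was present in 3 of 43 (6.98%) and in 3.46% of all. Its holders besides Psmd4 were Psmd9 and Psmb3, neither called, and 0 of the 3 immunoproteasome genes held it. The gamma-activated site TTCNNNGAA was present in 2 of 43 (4.65%) and in 8.13% of all. These were Psmb8, not called, and Psmg1, not tested. The share for the first motif was close to that of all genes, and those for the other motifs rested on 3 and 2 genes. A match is a description of the sequence only, and no binding was measured.

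Among the 7 alpha ring genes of the core, 1 rose and 1 fell. Psma7 had 30.7, 37.1, 36.3, 29.6 and 27.7 CPM in P7 platelets (in the order A, B, C, E, I), and 22.9, 28.7, 21.8, 23.8 and 18.1 CPM in adult platelets (A, B, C, G, H), an order kept throughout. Adult B exceeded P7 I, so the groups overlapped. Psma7 rose by 0.49 ± 0.17 (SE) on the log2 scale (edgeR adjusted p = 0.0459). Psma2 had 15.8, 21.8, 14.9, 15.05 and 20.8 CPM in P7 platelets and 24.6, 25.8, 28.8, 24.9 and 22.7 CPM in adult platelets. Each P7 library was below each adult library, and Psma2 fell by 0.52 ± 0.17 (SE, edgeR adjusted p = 0.0358). Both calls were close to the threshold. Psma7 was no longer called when P7 A, B, C or E or adult A, C, G or H was left out, with log2 fold changes of 0.40 to 0.49, nor was Psma2 when P7 A, C or E or adult A, B or C was left out, with -0.54 to -0.47. Psma2 was also not called with library size alone (-0.47, edgeR adjusted p = 0.0605) or upper quartile scaling (-0.46, edgeR adjusted p = 0.0504), and Psma7 not with RLE size factors (0.46, edgeR adjusted p = 0.0552). Neither was called without the filter on low counts or with the trend of each library against GC content removed, where Psma2 was at -0.15 and Psma7 at 0.36. The remaining alpha ring genes were not called, with log2 fold changes of 0.81 ± 0.34 for Psma1, 0.05 for Psma4, -0.02 for Psma6, -0.56 ± 0.25 for Psma3 and -0.67 ± 0.24 for Psma5 (SE). The last just missed the threshold, with 5.01 ± 1.10 CPM in P7 platelets and 7.95 ± 1.98 CPM in adult platelets (SD, n = 5 per age, edgeR adjusted p = 0.0527).

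None of the 4 beta ring genes without a cutting site was called, by edgeR, DESeq2 or limma-voom, and 0 had an unadjusted p under 0.05 in edgeR. Psmb2, the most abundant per length of these, had 20.6 to 31.3 CPM in P7 platelets and 19.1 to 21.7 CPM in adult platelets, with a log2 fold change of 0.35 ± 0.17 (SE, edgeR adjusted p = 0.14). Psmb1 averaged 19.9 ± 2.88 CPM in P7 platelets and 19.5 ± 3.78 CPM in adult platelets (SD, n = 5 per age). Psmb4 averaged 10.4 ± 2.38 CPM in P7 platelets and 9.31 ± 1.86 CPM in adult platelets, and Psmb3 1.94 ± 0.476 CPM in P7 platelets and 1.37 ± 0.631 CPM in adult platelets (SD, n = 5 per age).

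Of the 3 standard catalytic genes 2 rose, and the third was not called. Psmb6, which encodes the caspase-like cutting site, had 17.7, 18.4, 23.4, 16.6 and 16.0 CPM in P7 platelets and 10.2, 6.36, 6.92, 8.61 and 6.83 CPM in adult platelets. Each P7 library was above each adult library, and the gene rose 2.36-fold (log2 1.24 ± 0.20, SE, edgeR adjusted p = 0.000425). Psmb5, for the chymotrypsin-like site, the main target of clinical proteasome inhibitors, had 33.2, 38.7, 42.3, 29.2 and 34.9 CPM in P7 platelets and 18.3, 20.4, 20.5, 20.2 and 29.5 CPM in adult platelets. Adult H stood above the other adult libraries and just above P7 E. Psmb5 rose by 0.71 ± 0.18 (SE, edgeR adjusted p = 0.00846), but with the trend of each library against GC content removed its log2 fold change was 0.40 and was not called (edgeR adjusted p = 0.10). Psmb7, for the trypsin-like site, had 4.95, 3.36, 3.22, 3.20 and 2.97 CPM in P7 platelets and 4.30, 4.60, 3.27, 4.50 and 4.19 CPM in adult platelets. P7 A was the highest of all libraries, the other P7 libraries lay near adult C, and the log2 fold change of -0.24 ± 0.23 did not pass (SE, edgeR adjusted p = 0.49).

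**Figure D2:**
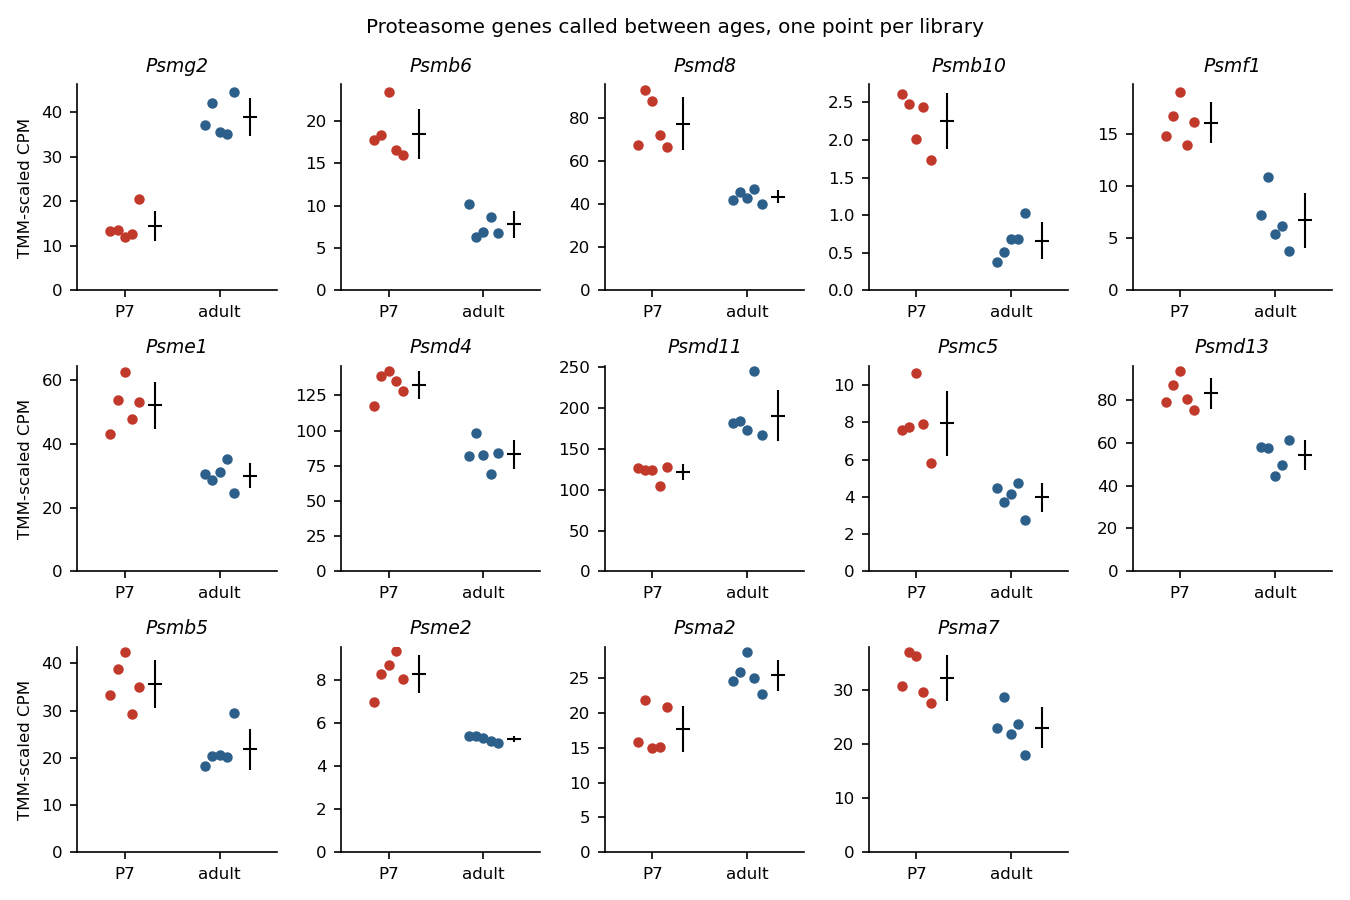
TMM-scaled CPM of the 14 called proteasome genes in each library (points; P7 in red on the left, adult in blue on the right), with mean and SD in black, ordered by p. Groups overlap for Psmb5, through adult H at 29.5 CPM, and for Psma7, and do not for the other 12.

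The 3 inducible catalytic genes of the immunoproteasome were present at low levels, which summed to 4.60 to 7.72 CPM in P7 platelets and 1.62 to 3.84 CPM in adult platelets. Psmb10, the inducible counterpart of Psmb7, had 2.62, 2.48, 2.01, 2.44 and 1.73 CPM in P7 platelets and 0.382, 0.516, 0.682, 0.685 and 1.03 CPM in adult platelets, which rest on 38 to 65 and 8 to 18 counts per library. All P7 libraries lay above all adult libraries, and the gene rose 3.42-fold (log2 1.77 ± 0.34, SE, edgeR adjusted p = 0.00164), the largest rise among the 11. Psmb9, the counterpart of Psmb6, had 0.805, 0.93, 1.21, 2.28 and 2.01 CPM in P7 platelets and 0.525, 0.688, 0.536, 0.985 and 0.516 CPM in adult platelets. P7 E and I were the highest, and P7 A and B lay below adult G. Its log2 fold change of 1.14 ± 0.41 missed the threshold (SE, edgeR adjusted p = 0.0526). Psmb8, the counterpart of Psmb5, had 2.82, 1.19, 3.14, 3.0 and 3.29 CPM in P7 platelets and 0.716, 1.25, 1.51, 1.76 and 2.30 CPM in adult platelets. P7 B lay among the adult libraries, the other P7 libraries above them, and the log2 fold change of 0.84 ± 0.36 did not pass (SE, edgeR adjusted p = 0.0978). Without P7 B the log2 fold change of Psmb8 was 1.03 and passed (edgeR adjusted p = 0.0389). That of Psmb9 passed without any 1 of P7 A, P7 B and adult G, at 1.26 to 1.32. Psmb9 also passed in DESeq2 and with library size alone or upper quartile scaling. Of the 19 other settings of the processing that tested each gene, Psmb8 passed in 1 and Psmb9 in 6. Psmb9 did not pass without P7 E (0.89, edgeR adjusted p = 0.16) or P7 I (0.99, edgeR adjusted p = 0.11). Correction for GC content brought Psmb8 to 0.56 and Psmb9 to 0.88, neither called (edgeR adjusted p = 0.27 and 0.14).

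Each inducible gene was then set against the standard gene whose place its product takes, as the log2 ratio of counts within a library, which no scaling between libraries can change. The ratio does keep a trend with GC content, which is 56.5% for Psmb10 and 48.7% for Psmb7. The other pairs are closer, at 55.8 and 56.6% for Psmb8 and Psmb5, and 55.3 and 55.8% for Psmb9 and Psmb6. With that trend removed, the log2 fold changes of Psmb10 and Psmb7 were 1.48 and -0.26. For Psmb10 over Psmb7, the log2 ratio was -0.91, -0.43, -0.67, -0.39 and -0.77 in the P7 libraries and -3.41, -3.1, -2.22, -2.68 and -1.99 in the adult libraries. Every P7 library was above every adult library. The mean was -0.64 ± 0.22 in P7 platelets and -2.68 ± 0.59 in adult platelets (SD, n = 5 per age), a difference of 2.05, with a two-sided exact permutation p = 0.0079, the smallest that 252 splits can give, and an adjusted p of 0.0238 over 3 pairs. Psmb10 held 34.6 to 43.3% of the counts of this pair in P7 libraries and 8.16 to 19.8% in adult libraries. The highest upper 95% bound among adults was 29.4% and the lowest lower bound at P7 27.6% (exact Clopper-Pearson intervals, which cover counting error only), so the intervals of the closest libraries met.

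No shift was detected in the other pairs. For Psmb8 over Psmb5 the mean log2 ratio was -3.79 ± 0.70 in P7 platelets and -3.91 ± 0.44 in adult platelets (SD, n = 5 per age), a difference of 0.12 (two-sided exact permutation p = 0.71, adjusted 0.71). For Psmb9 over Psmb6 it was -3.76 ± 0.77 in P7 platelets and -3.56 ± 0.45 in adult platelets (SD, n = 5 per age), a difference of -0.20 (exact permutation p = 0.63, adjusted 0.71). In this pair P7 E and I were at -2.85 and -2.98 and the other P7 libraries between -4.43 and -4.26, below each adult library, while P7 E and I were above each. The range over libraries was wide in both pairs, so shifts smaller than this spread were not detectable.

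**Figure D3:**
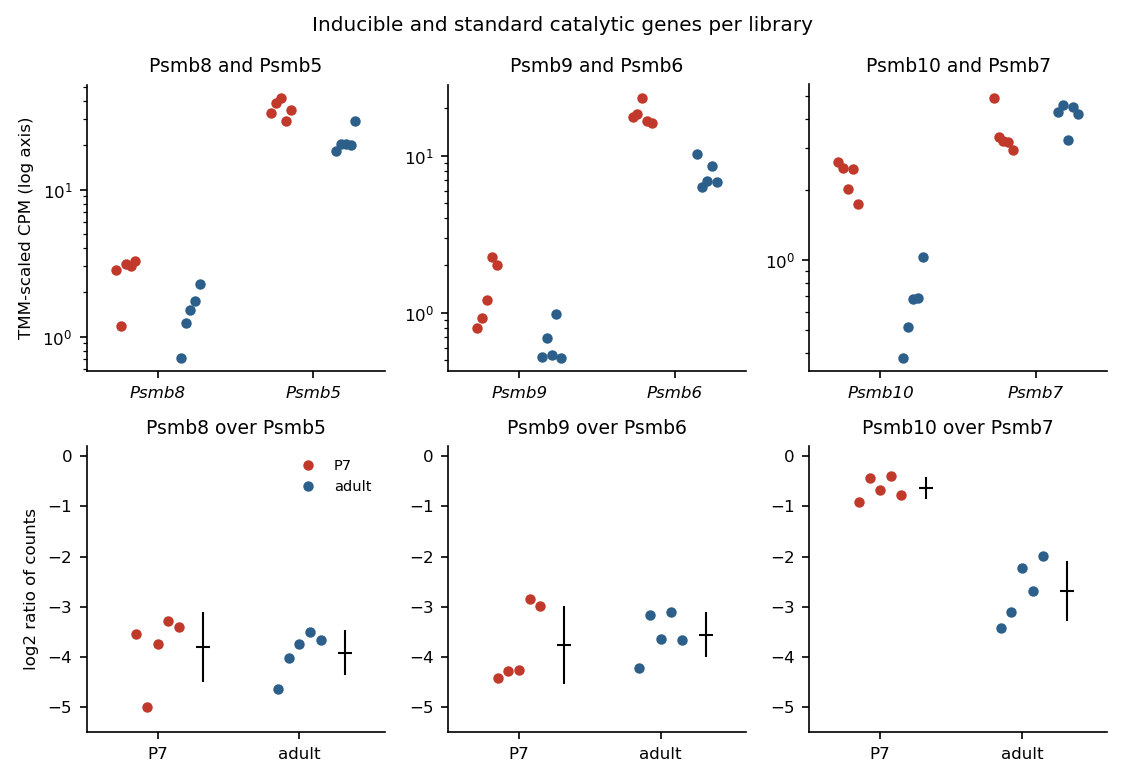
Top: TMM-scaled CPM on a log axis of each inducible catalytic gene and its standard counterpart in the P7 (red) and adult (blue) libraries. Bottom: log2 ratio of counts of the pair in each library, with mean and SD in black. The Psmb10 over Psmb7 ratio is -0.91 to -0.39 at P7 and -3.41 to -1.99 in adults, and the other ratios overlap between the ages.

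Leukocytes are rich in immunoproteasome, and some of their markers differed between the ages. All 14 leukocyte markers had a count in at least 1 library and 5 were tested, of which H2-Aa was higher and Lyz2 and Nkg7 lower at P7. H2-Aa, of MHC class II, averaged 6.66 ± 1.06 CPM in P7 platelets and 3.34 ± 1.46 CPM in adult platelets, while Ptprc, which encodes the pan-leukocyte protein CD45, averaged 0.489 ± 0.346 CPM in P7 platelets and 0.517 ± 0.239 CPM in adult platelets (SD, n = 5 per age). Of the 9 leukocyte markers not tested, 8 had a higher mean in P7 platelets and Ptprc a lower one. Cd79a, of B cells, averaged 0.912 ± 0.997 CPM in P7 platelets and 0.134 ± 0.104 CPM in adult platelets, and S100a8, of neutrophils, 0.584 ± 0.201 CPM in P7 platelets and 0.104 ± 0.130 CPM in adult platelets (SD, n = 5 per age). The P7 mean of Cd79a rests mostly on P7 E, with 67 counts against 7 to 14 in the other P7 libraries. Cd3e and Elane had 0 counts in adult libraries, and at most 3 and 1 in a P7 library. The summed level of the list, mostly Lyz2, was 2267 to 3483 CPM in P7 platelets and 2929 to 6112 CPM in adult platelets. Of 10 erythroid markers 8 were tested, of which Car2 was higher and 0 lower. Slc4a1 and Klf1 had 0 counts in adult libraries, against 0 to 17 and 5 to 17 counts in P7 libraries. The erythroid sum was 839 to 2439 CPM in P7 platelets and 524 to 1725 CPM in adult platelets. The part of leukocytes and red cells in the proteasome gene differences was not tested.

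In the regulatory particle the ATPase ring had 1 higher and 0 lower of 6 genes. Psmc5 had 7.56, 7.75, 10.7, 7.88 and 5.84 CPM in P7 platelets and 4.49, 3.74, 4.14, 4.76 and 2.75 CPM in adult platelets. The groups were separate, and Psmc5 rose by 1.00 ± 0.23 (SE, edgeR adjusted p = 0.00548). The other 5 had log2 fold changes of 0.06 to 0.51, and Psmc4 was the nearest to a call (edgeR adjusted p = 0.0942). Psmc3, by far the most abundant ATPase gene per length, was at 52.2 to 89.7 CPM in P7 platelets and 45.7 to 97.9 CPM in adult platelets, wide ranges of which the P7 one lay inside the adult one, with a log2 fold change of 0.06 ± 0.20 (SE).

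Of the base genes outside the ATPase ring 1 of 3 was called. Psmd4, whose product is a receptor for ubiquitin chains, had 118, 139, 143, 135 and 128 CPM in P7 platelets and 81.6, 97.9, 82.4, 69.1 and 84.1 CPM in adult platelets. The lowest P7 library exceeded the highest adult library, and Psmd4 rose by 0.67 ± 0.14 (SE, edgeR adjusted p = 0.00240). The scaffold gene Psmd2 averaged 28.4 ± 7.29 CPM in P7 platelets and 25.9 ± 7.44 CPM in adult platelets, and the scaffold gene Psmd1 5.48 ± 1.31 CPM in P7 platelets and 6.72 ± 1.77 CPM in adult platelets (SD, n = 5 per age). Neither passed the test. Adrm1, which encodes another ubiquitin receptor of the base, has a name outside the pattern. It averaged 3.58 ± 0.655 CPM in P7 platelets and 1.89 ± 0.380 CPM in adult platelets (SD, n = 5 per age) and rose by 0.92 ± 0.26 (SE, edgeR adjusted p = 0.0161), but not with the GC trend removed (0.50, edgeR adjusted p = 0.18).

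The lid had members that moved in opposite directions, 2 higher and 1 lower of 8. Psmd8 had 67.7, 93.2, 88.1, 72.2 and 66.8 CPM in P7 platelets and 42.0, 45.9, 42.9, 47.2 and 40.2 CPM in adult platelets. Psmd13 had 78.9, 87.1, 93.5, 80.4 and 75.2 CPM in P7 platelets and 58.2, 57.4, 44.5, 49.8 and 61.0 CPM in adult platelets. Both encode structural lid subunits and had no overlap between the ages. Psmd8 and Psmd13 rose by 0.83 ± 0.15 and 0.62 ± 0.15 (SE, edgeR adjusted p = 0.000996 and 0.00588). Psmd11, for another lid subunit, whose overexpression is known to raise proteasome activity in worms and human cells, went the other way. It had 126, 124, 124, 105 and 128 CPM in P7 platelets and 181, 184, 173, 245 and 167 CPM in adult platelets, with P7 E lowest and adult G highest. No P7 library reached an adult one, and Psmd11 fell by 0.65 ± 0.14 (SE, edgeR adjusted p = 0.00387). Psmd14, which encodes the lid's deubiquitinase, was at 6.20 ± 1.21 CPM in P7 platelets and 6.38 ± 1.88 CPM in adult platelets (SD, n = 5 per age). The rest of the lid, Psmd3, Psmd6, Psmd7 and Psmd12, had log2 fold changes of 0.39 to 0.86 and was not called, although Psmd3, at 2.24 to 3.26 CPM in P7 platelets and 0.516 to 2.0 CPM in adult platelets, did not overlap. In all, 10 tested members had every P7 library above every adult one (21.7%, against 10.1% of all genes tested), and 3 the reverse (6.52%, against 9.76%).

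The weight of the large genes within the family differed between the ages. Psmd11 made up 13.3 ± 1.02% of all proteasome gene counts in P7 platelets and 23.3 ± 3.14% in adult platelets (SD, n = 5 per age). Psmd4 made up 14.5 ± 0.916% in P7 platelets and 10.2 ± 1.34% in adult platelets (SD, n = 5 per age). Psmd4 had more counts than Psmd11 in 3 of 5 P7 libraries and in 0 of 5 adult libraries. Psmd11, Psmd4, Psmc3, Psmd13 and Psmd8 together held 54.0% of the counts on average.

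Per length of transcript, the subunits of a complex that holds them in equal number spanned a wide range. Psmd4 was highest at P7, at 75.4 CPM per kb in P7 platelets and 47.3 CPM per kb in adult platelets, and Psmd11 highest in adults, at 42.6 CPM per kb in P7 platelets and 66.8 CPM per kb in adult platelets. Psmc6, an ATPase of the same base as Psmd4, was at 0.646 CPM per kb in P7 platelets and 0.482 CPM per kb in adult platelets. Among the inducible genes, Psmb10 was at 1.72 CPM per kb in P7 platelets and 0.503 CPM per kb in adult platelets. Its standard counterpart Psmb7 was at 3.05 CPM per kb in P7 platelets and 3.59 CPM per kb in adult platelets. The other standard genes were higher than Psmb7. Psmb5 was at 39.7 CPM per kb in P7 platelets and 24.2 CPM per kb in adult platelets. Psmb6 was at 23.1 CPM per kb in P7 platelets and 9.76 CPM per kb in adult platelets. Lengths are those of the longest annotated transcript, so a gene read from a shorter one in platelets is understated.

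**Figure D4:**
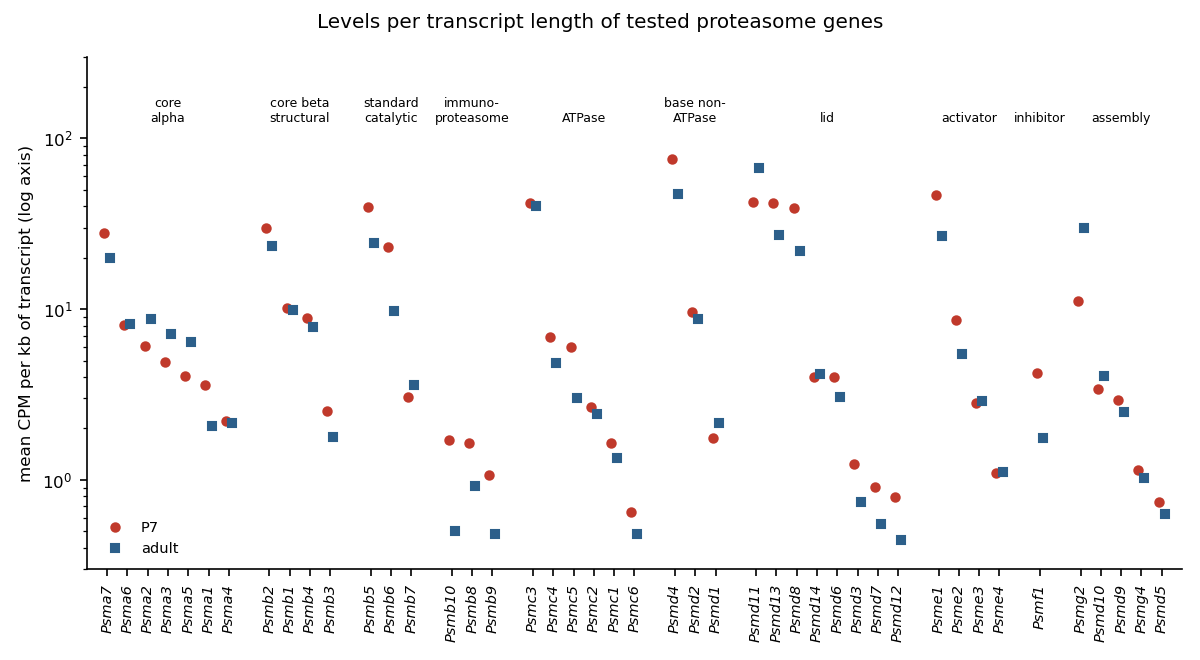
Mean TMM-scaled CPM per kb of the longest annotated transcript, on a log axis, of the 44 tested genes with a proteasome role at P7 (red circles) and in adults (blue squares). The levels run from Psmd4, at 75.4 CPM per kb in P7 platelets, to Psmd12, at 0.443 CPM per kb in adult platelets.

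Of the 4 activator genes tested, 2 rose. Psme1 and Psme2 encode the alpha and beta subunits of PA28, an interferon-inducible ring that opens the core and goes with the immunoproteasome. Psme1 had 42.9, 53.8, 62.5, 47.7 and 52.9 CPM in P7 platelets and 30.6, 28.7, 31.0, 35.2 and 24.5 CPM in adult platelets. Psme2 had 7.0, 8.32, 8.72, 9.36 and 8.08 CPM in P7 platelets and 5.39, 5.42, 5.31, 5.18 and 5.11 CPM in adult platelets. In both genes each P7 library exceeded each adult library. Psme1 rose by 0.79 ± 0.16 on the log2 scale (SE, edgeR adjusted p = 0.00228). Psme2 rose by 0.65 ± 0.18 (SE, edgeR adjusted p = 0.0167), a call lost without P7 E (0.58, edgeR adjusted p = 0.0503) and with the GC trend removed (0.47, edgeR adjusted p = 0.0728). Psme2b, a near copy of Psme2 with 8 counts at most in a library, may share reads with it. Psme3, for the nuclear PA28 gamma, averaged 7.51 ± 1.76 CPM in P7 platelets and 7.71 ± 2.01 CPM in adult platelets (SD, n = 5 per age). Psme4, for the activator PA200, averaged 7.09 ± 1.53 CPM in P7 platelets and 7.19 ± 2.91 CPM in adult platelets (SD, n = 5 per age), and neither was called.

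Psmf1, which encodes PI31, an inhibitor of the isolated core that also acts in proteasome transport, had 14.7, 16.6, 18.9, 13.9 and 16.1 CPM in P7 platelets and 7.25, 10.9, 5.41, 6.17 and 3.73 CPM in adult platelets. The groups did not overlap. Psmf1 rose 2.39-fold (log2 1.26 ± 0.25, SE, edgeR adjusted p = 0.00209).

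Psmg2, which encodes a chaperone that pairs with another to start assembly of the alpha ring, had the lowest p of the 46 and was the 1 assembly gene called of 5 tested. It had 13.4, 13.6, 12.1, 12.6 and 20.5 CPM in P7 platelets and 37.1, 42.2, 35.7, 35.1 and 44.6 CPM in adult platelets. P7 I stood above the other P7 libraries but well below each adult library. The gene was 2.69-fold lower at P7 (log2 -1.43 ± 0.18, SE, edgeR adjusted p = 8.07e-05). The gene was lower in each of the 20 other settings of the processing, always past the threshold. Psmg1, whose product forms the pair with that of Psmg2, had 0 to 26 counts at P7 and 0 to 11 in adults and was not tested, nor was Psmg3, with 2 to 15 counts at P7 and 0 to 3 in adults. Psmg4, for the partner of the Psmg3 product, had a log2 fold change of 0.15 ± 0.46 (SE). The chaperones of the base, Psmd5, Psmd9 and Psmd10, had log2 fold changes of 0.22, 0.24 and -0.25 and were not called. Pomp, the maturation factor of the core, was at 42.9 ± 5.39 CPM in P7 platelets and 41.0 ± 4.31 CPM in adult platelets (SD, n = 5 per age).

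The 10 symbols not tested were Psmg1, Psmg3, Psme2b, the testis gene Psma8, the thymus gene Psmb11 and the 5 pseudogenes. Psma8 had at most 4 counts in a P7 library and 1 in an adult library. Psmb11 had 0 counts in all P7 libraries, which allows up to 0.120 to 0.154 CPM in a library at a limit of 3 counts, and 7 counts in adult H. The pseudogenes had 0 to 6 counts in a library, and Psmb5-ps 0 in all. They may share reads with their parent genes Psma5, Psmb5, Psmb6 and Psmb7. Of the name matches tested, Psme3ip1 had a log2 fold change of 0.03 ± 0.18 and Psmc3ip 0.79 ± 0.66 (SE), and 0 were called by edgeR, DESeq2 or limma-voom or had an unadjusted p under 0.05 in edgeR.

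Of 12 partner genes tested around the proteasome, 2 rose and 1 fell. Over all genes tested, 13.8% were called higher and 13.9% lower, so 3 calls among 12 do not set the partners apart. The same shares over all genes apply to the lists that follow. Adrm1 was given above with the base. Zfand2b, for a ubiquitin-binding adaptor at the endoplasmic reticulum, averaged 4.75 ± 1.07 CPM in P7 platelets and 2.55 ± 0.823 CPM in adult platelets (SD, n = 5 per age) and rose by 0.90 ± 0.28 (SE, edgeR adjusted p = 0.0267). Ecpas, for a scaffold that tethers core and regulatory particle, averaged 3.28 ± 0.750 CPM in P7 platelets and 5.35 ± 1.01 CPM in adult platelets (SD, n = 5 per age) and fell by 0.71 ± 0.24 (SE, edgeR adjusted p = 0.0395). After removal of the GC trend, Zfand2b and Ecpas had log2 fold changes of 0.51 and -0.54 and neither was called (edgeR adjusted p = 0.19 and 0.12). Zfand2b was also not called when P7 B, C or I or adult A, B or C was left out, with 0.75 to 0.87, nor was Ecpas when P7 A, C or I or adult B or C was left out, with -0.70 to -0.62. Library size alone and upper quartile scaling gave Ecpas -0.65 and -0.64, also without a call.

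Of the 5 genes that control proteasome gene expression, 0 rose and 2 fell. Nfe2l1 encodes the factor that raises transcription of subunit genes when proteasome activity is low. It had 5.79, 4.55, 6.67, 5.96 and 2.83 CPM in P7 platelets and 7.11, 6.70, 14.3, 12.2 and 11.4 CPM in adult platelets. The highest P7 library was just below the lowest adult library, and the gene fell by 1.00 ± 0.28 (SE, edgeR adjusted p = 0.0156). Nfe2l2, for the related factor of the oxidative stress response, had 28.5, 20.4, 20.9, 18.6 and 34.5 CPM in P7 platelets and 42.1, 42.9, 41.8, 40.6 and 35.9 CPM in adult platelets. P7 I came close to adult H without reaching it, and Nfe2l2 fell by 0.73 ± 0.19 (SE, edgeR adjusted p = 0.0102). Ddi2 and Ngly1, which encode enzymes that process the Nfe2l1 product, had log2 fold changes of -0.35 and -0.21 and were not called, nor was Syvn1, for a ubiquitin ligase that acts on the same factor, at 1.2 ± 0.54 (SE).

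Of the ubiquitin genes Ubb was by far the highest per length, at 687 CPM per kb in P7 platelets and 682 CPM per kb in adult platelets. Its level was 1029 ± 139 CPM in P7 platelets and 1022 ± 391 CPM in adult platelets (SD, n = 5 per age), and it was not called. Of 5 genes for ubiquitin and its activation tested, 2 rose and 0 fell. Rps27a, which encodes ubiquitin fused to a ribosomal protein, had 1.77, 1.5, 3.1, 2.56 and 3.51 CPM in P7 platelets and 0.334, 0.602, 1.02, 0.942 and 1.2 CPM in adult platelets. Its groups were separate between the ages, at low counts, and Rps27a rose by 1.6 ± 0.39 (SE, edgeR adjusted p = 0.00724). It has processed copies in the genome that may take some of its reads. Uba1, for the main activating enzyme, was at 285 ± 67.6 CPM in P7 platelets and 230.0 ± 30.3 CPM in adult platelets (SD, n = 5 per age) and was not called. None of the 8 genes that deliver substrates was called, by edgeR, DESeq2 or limma-voom, and 0 had an unadjusted p under 0.05 in edgeR. Vcp, for the ATPase that extracts substrates, averaged 52.9 ± 9.65 CPM in P7 platelets and 50.8 ± 6.24 CPM in adult platelets (SD, n = 5 per age).

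The genes that supply peptides to MHC class I downstream of the proteasome had 0 higher and 1 lower of 6 tested. B2m, the light chain of class I, had 942, 1220, 1045, 937 and 2103 CPM in P7 platelets and 5198, 6533, 4437, 5486 and 6921 CPM in adult platelets. P7 I was highest at P7 yet below the lowest adult library, and B2m fell by 2.19 ± 0.22 (SE, edgeR adjusted p = 1.54e-05). Tap1 and Tap2, for the peptide transporter, averaged 0.50 ± 0.161 CPM and 1.38 ± 0.819 CPM in P7 platelets, and 0.473 ± 0.381 CPM and 1.08 ± 0.668 CPM in adult platelets (SD, n = 5 per age). Tapbp, for the loading factor tapasin, was far more abundant per length. Its level was 192 ± 54.8 CPM in P7 platelets and 170 ± 30.4 CPM in adult platelets (SD, n = 5 per age). Irf1, for an interferon response factor that acts on inducible subunit genes, had a log2 fold change of 0.79 ± 0.88 (SE). None of these 4 was called.

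Transcript GC content went with the direction of change over all genes and among the called members of the family. The 11 higher members had a GC content of 48.8 to 56.6%, with a median of 53.4%, and the 3 lower members 39.4 to 47.9%, with a median of 47.2%. The 32 members not called spanned both ranges, at 37.0 to 58.3%, with a median of 49.4%. Over all genes, the median was 52.7% for those called higher and 46.0% for those called lower, and Spearman's rho of GC content and log2 fold change was 0.28 over 8137 genes, which share their libraries. With this trend removed from each library, 8 members were higher and 3 lower. Psmb5, Psme2, Psma2 and Psma7 lost their calls, Psma2 with a log2 fold change of -0.15 (edgeR adjusted p = 0.56), and Psma5 gained one. Psmb10 had a log2 fold change of 1.48, Psmb6 0.95, Psmd11 -0.63 and Psmg2 -1.39 there, all called by edgeR. The part of this trend in each gene's difference was not tested beyond that fit.

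**Figure D5:**
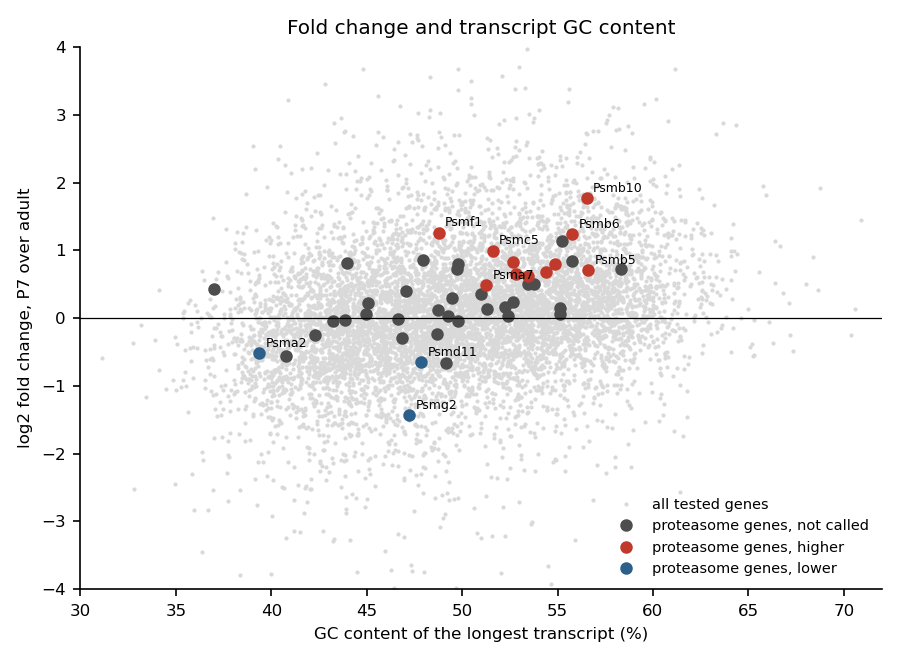
Log2 fold change, P7 over adult, against GC content of the longest annotated transcript for all tested genes (small grey points; 42 genes lie outside the axes) and for proteasome genes not called (dark grey), higher (red) and lower (blue). The higher members lie between 48.8 and 56.6% GC and the lower ones between 39.4 and 47.9%.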

How the data were processed

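Platelet polyA RNA of P7 and adult mice was amplified by a SMARTer kit for low input and made into Nextera XT libraries, per the labels' protocols, which do not state strand. The deposited values are raw counts per gene symbol for each library. The submitters' processing notes name fastp 0.23.1, STAR 2.7.9a, Subread 2.0.1, featureCounts and Salmon 1.5.2, without roles. The build they mapped to was not given in the sources used here. Groups follow the sample titles. Members and gene lists were chosen with earlier results of these data known.

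Counts of all genes were fitted with edgeR 4.0.16 (R 4.3.3; limma 3.58.1, DESeq2 1.42.0 as alternative tools), using filterByExpr (minimum count 10, total 15), TMM scaling and a robust quasi-likelihood F test, with Benjamini-Hochberg adjustment over 8198 genes. Log2 ratios of catalytic pairs used counts plus 0.5 and an exact permutation test over 10 libraries. Total counts of 19431863 to 25029931 make 3 counts 0.120 to 0.154 CPM. Lengths and GC content are of GENCODE M21 longest transcripts, present for 99.3% of tested genes, and promoters are from RefSeq (GRCm38.p6), matched by symbol. Values in each library are given for called members and the catalytic and PA28 genes, and called genes of other lists are named, up to 4 a list by p. Paaf1, a listed partner, was not analysed here. Some listed genes are counted but not reported here by name. Alternatives were other scalings, tools, filters, a GC correction, shared letters as a block and leaving out each library. The scripts were tested on simulated data.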

Additional observations from a re-analysis of the deposited data

Results flagged for a closer look

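In 8 of 56 groups of 5 libraries checked, 1 library stood apart by more than the 95% limit of Dixon's test, where chance flags about 5% of groups. Psmg2 was 20.5 CPM in P7 I, with the other P7 libraries at 12.1 to 13.6 CPM. Psmd11 was 105 CPM in P7 E, with the others at 124 to 128 CPM, and 245 CPM in adult G, with the others at 167 to 184 CPM. Psmb5 was 29.5 CPM in adult H, with the others at 18.3 to 20.5 CPM. Psmb7 was 4.95 CPM in P7 A, with the others at 2.97 to 3.36 CPM. Psmb8 was 1.19 CPM in P7 B, with the others at 2.82 to 3.29 CPM, and the log2 ratio of Psmb8 to Psmb5 was -5.00 there, with the others at -3.74 to -3.27. B2m was 2103 CPM in P7 I, with the other P7 libraries at 937 to 1220 CPM.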

How the results depend on the processing

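The genes followed across the 20 other settings were the called members, the catalytic genes and the called genes of the lists around the proteasome. Other genes named above were not followed. None of those followed changed direction. Psmg2, Psmb6, Psmd8, Psmb10, Psmf1, Psme1 and Psmc5 were called wherever they were tested. Leaving out 1 library gave 9 to 13 members higher and 2 to 4 lower, and differences in log2 ratio of -0.06 to 0.42 for Psmb8 over Psmb5, -0.43 to -0.03 for Psmb9 over Psmb6 and 1.86 to 2.22 for Psmb10 over Psmb7. The first was reversed at -0.010 without P7 E and -0.061 without adult A, and was called in neither. Letters A to C occur at both ages, but same-letter libraries did not deviate together (r = -0.038, 0.065 and 0.0067), so the letters were not taken as pairs. Whether they mark a shared batch is not stated in the labels. With these 6 libraries and the letter as a replicate block, 7 members were higher and 1 lower, against 9 higher and 2 lower in the same libraries without the block. The Psmb10 over Psmb7 difference in the block was 2.24 (adjusted exact permutation p = 0.38), and 3 pairs cannot pass the threshold. Counts of members were 10 higher and 4 lower with RLE size factors, 12 and 2 with library size alone or upper quartile scaling, 12 and 4 in DESeq2, 11 and 3 in limma-voom, 9 and 2 with no filter, and 8 and 3 with a filter of 10 CPM in 5 libraries, which left 18 members. No filter moved the median log2 fold change of all genes by 0.19, to 0.24, and the members' median there was 0.37. Depth limits the inducible genes, which rest on 8 to 78 counts a library. PCR reads without molecular identifiers are not independent molecules.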
